A study of Mus musculus with 8 samples.

Results

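The genes described here are those with a probe whose signal was present in some mice and low or off in others, without an exact split by genotype. They were chosen by their own values: for each array probe, the 8 normalized log2 values of the deposited table were sorted, and a probe was kept where the largest gap between neighbouring values was at least 2 (4-fold), was wider than the spread on either side of it, and left at most 4 arrays below it. The probe also had to be well above background on 4 or more arrays by the scanner software's own call, and the low arrays could not be exactly the 4 arrays of one genotype. Some probes kept by the rule, such as those of Gfap and Pdxdc1, still had every R6/2 array above every WT array. Of 35121 probes that passed the background filter, for 23339 genes or transcripts, 113 probes of 101 genes or transcripts were selected on these values, which is 0.322% of the tested probes. Another 6 probes had the same shape with the 4 arrays of one genotype as the low ones and were left out by the rule.

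Striatal RNA came from 4-week-old male mice, with 4 R6/2 samples (R6/2 1 to R6/2 4) and 4 wild-type samples (WT 1 to WT 4), each labelled with Cy3 and hybridized to one array. R6/2 mice carry a transgene with the beginning of the human huntingtin gene and its expanded CAG repeat, under the human huntingtin promoter, and serve as a model of Huntington's disease. The labels do not give the strain or the litter of any mouse, and do not say whether a sample was 1 animal or a pool. All 8 arrays lay on 1 slide, with the R6/2 arrays in one row and the WT arrays in the other, so slide row and genotype cannot be told apart.

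A gene that is on in one mouse and off in the next, whatever their genotype, is a familiar sight in mice that are not fully inbred. The R6/2 line is commonly kept by crossing C57BL/6 with CBA, and inbred strains differ in which genes they carry, in how strongly they transcribe them and in single bases under a probe. Genes that lie close together on a chromosome are mostly inherited together, and a mouse from such a cross may carry one strain's copy on both chromosomes, the other's, or one of each. These are background statements: whether inherited differences account for any split reported here was not tested.

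All 8 arrays were alike in brightness, with a 75th percentile of the processed signal between 434 and 486, with 61.5% to 67.7% of probes well above background, and with 0 saturated probes. Markers of striatal projection neurons were detected for all 13 genes of their list, with a mean centred log2 level between -0.64 and -0.15 on R6/2 arrays and between 0.24 and 0.44 on WT arrays. One array stood apart in immune-related genes: WT 3 had 3.70 for a probe of the major histocompatibility gene H2-K1, 3.72 for the surface antigen Ly6a and -0.52 for the inflammatory caspase Casp4, against at most 2.12, 1.67 and -2.88 on the other 7 arrays. Choroid plexus markers also differed widely between arrays of both genotypes, as given beside Kcne2 below.

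The clearest case of shared sequence was a set of 3 probes with no gene name, placed on chromosomes 3, 4 and 11, which had the same 4 low arrays. They are shown because they read nearly the same transcript sequence, so that they count as 1 observation rather than 3. The capitals mark the 49 bases common to all 3 probes, and positions are on mouse build mm9 as the scanner files give them.
A_55_P2037787, chr3:48540464-48540523, minus strand: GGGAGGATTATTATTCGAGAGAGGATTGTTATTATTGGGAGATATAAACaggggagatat
A_55_P2083894, chr4:133476548-133476607, plus strand: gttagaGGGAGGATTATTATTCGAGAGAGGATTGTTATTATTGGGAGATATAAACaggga
A_55_P2120919, chr11:5835389-5835448, plus strand: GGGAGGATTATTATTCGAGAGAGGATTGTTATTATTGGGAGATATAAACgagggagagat

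The chromosome 11 probe of this set read -0.07, -3.21, -3.49 and -3.38 on R6/2 1 to R6/2 4, and -0.08, -2.88, 0.11 and -0.01 on WT 1 to WT 4. It was thus low on R6/2 2, R6/2 3, R6/2 4 and WT 2, and well above background even there. A further probe, of the predicted gene Gm5589 on chromosome 14, shares a run of 31 bases with these probes and was not selected. It had the same 4 arrays lowest, at -4.55, -5.04, -4.32 and -3.94, with -2.95 on R6/2 1 and -2.68, -2.57 and -2.91 on WT 1, WT 3 and WT 4.

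For genes with a protein product, the first 30 bases of each probe are given, 5′ to 3′ in the orientation of the scanner files, because the comparison of 2 probes of one gene below turns on which stretch each reads. None of these bases is marked. Thumpd1 and Trim12a are on the list of genes known to vary between strains, and the others are among the genes of largest gap.
Thumpd1, selected probe, chr7:126858835-126858894: tgtgctagcgtacaggtgatccagggtagg
Thumpd1, other probe, chr7:126858660-126858719: gctgaatacagttctcagatatttttactg
Trim12a, selected probe of the larger gap, chr7:111448499-111448558: catagctaagggctgtcacttacatcaggt
Trim12a, second selected probe, chr7:111452759-111452818: aattgcagaagctgaggcaagagaaggaag
Kcne2, selected probe, chr16:92298236-92298295: gtaagtatccttaccacaaaacagtagcta
Acyp2, selected probe, chr11:30406126-30406185: actcacctatgttttagcaagcagaaacta
Acyp2, other probe, chr11:30549452-30549511: acaacggtcatctgccatcttcttacgcat
Spock3, selected probe, chr8:65835548-65835607: aaataaaaactttaatgttgaacttacata
Spock3, other probe, chr8:65835832-65835891: gttggtttattttaatctgtttatttgtca
Samd4, selected probe, chr14:47721800-47721859: ttttttgtaaaagactgattattgttatgg

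Among the 113 probes, 53 were low on a single array, 23 on 2 arrays, 16 on 3 and 21 on 4. The low arrays were of R6/2 alone for 40 probes, of WT alone for 33 and of both genotypes for 40, in 40 different combinations. On 71 probes no low array was well above background, and the probe is called off there, while on 36 probes every low array was still well above background. The remaining 6 probes had some low arrays on each side of that call. Off is said of the stretch that a probe reads and not of the gene, since other probes of the same gene often kept their signal, and 11 of the 71 off probes also had an array above the gap that was not well above background. None of the spots carried a flag of the scanner software for non-uniformity or outlying pixels.

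The gap ranged between 2.00 and 8.43 on the log2 scale with a median of 2.51, and 15 probes of 14 genes had a gap of at least 4. For an off probe the gap has a floor set by the array, so a bound was also taken, which sets the dimmest of the high arrays against the dimmest probe called well above background on the low array. That bound was at least 4-fold for 16 of the 71 off probes and had a median of 2.20-fold. Just inside the threshold were Xlr5c, Eqtn and A930006K02Rik, with gaps of 2.00, 2.01 and 2.01, and just outside it were a lincRNA probe on chromosome 3, an unnamed probe and the zinc finger gene Zfp933, with gaps that round to 2.0, 1.99 and 1.98. With normexp correction (offset 50) and quantile normalization in place of the deposited values, 11 probes met the rule, all of them among the 113, and normexp with 75th percentile scaling in place of quantile normalization, an alternative added after seeing the data, also gave 11. They include Thumpd1, Kcne2, C130078N14, Acyp2, Samd4, Adamts4 and Bfsp2.

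**Figure D1:**
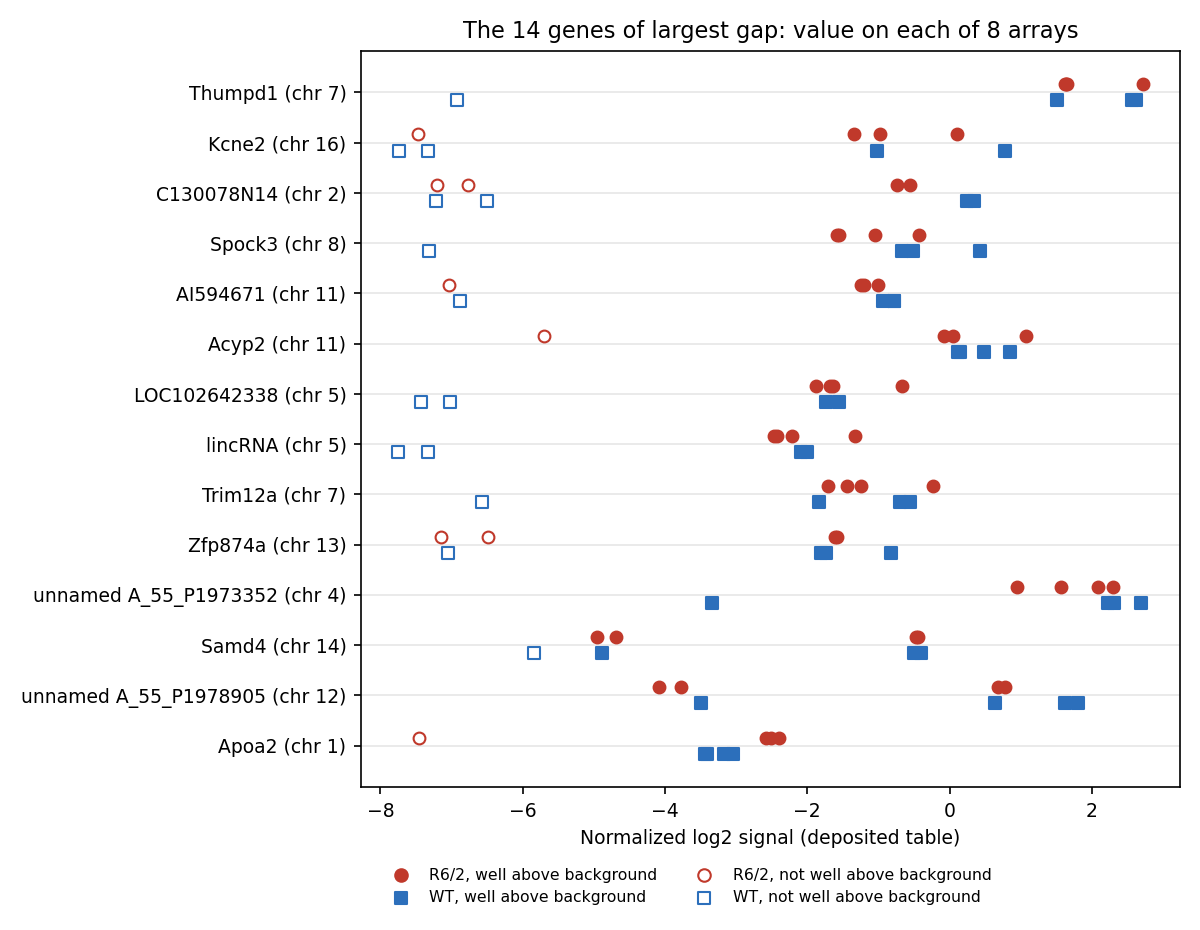
Normalized log2 signal (x axis) of the 14 genes of largest gap (rows, with chromosome) on each array, with R6/2 as red circles above WT as blue squares. Filled symbols were well above background and open ones were not; every row has a cluster of low arrays at the left, and the low symbols of Thumpd1 (WT 3) and Acyp2 (R6/2 2) are single arrays.

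Each array was low on a share of the genes. R6/2 1, R6/2 2 and R6/2 3 were low on 35, 36 and 34 of the 113 probes and R6/2 4 on 23, while WT 1, WT 2, WT 3 and WT 4 were low on 26, 16, 36 and 25. As the only low array, WT 3 accounted for 14 probes, R6/2 1 and R6/2 2 for 11 each, R6/2 3 for 7, WT 2 and WT 4 for 3 each, and R6/2 4 and WT 1 for 2 each. Over all tested probes, the lowest array was WT 3 on 26.3%, R6/2 1 on 10.2%, R6/2 2 on 9.41% and R6/2 3 on 9.40%. It was WT 2 on 11.6%, WT 4 on 8.37%, R6/2 4 on 12.7% and WT 1 on 12.0%. The probes lay on chromosomes 1 to 18 and X, with 13 on chromosome 3, 12 on chromosome 4 and 5 on the X chromosome, and 3 on sequence not placed in mm9. By naming source, 27 of the probes (23.9%) lie in intervals annotated as long intergenic non-coding RNA (lincRNA), against 21.6% of all tested probes.

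In the comparison of genotypes, limma called 529 of the 35121 tested probes at an adjusted p under 0.05 (1.51%, Benjamini-Hochberg over all tested probes), and 282 with the replicate number as a block. Leaving out 1 array gave between 100 (without WT 4) and 506 (without WT 3) calls. Of the 113 selected probes limma called 0, with or without the block, and 0 on the deposited log2 values, while 7 had an unadjusted p under 0.05. The lowest adjusted p from limma was 0.0585, for Gfap. Since the rule left out exact splits along the genotype, nothing is read from that count.

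The largest gap of all was that of Thumpd1, which encodes a partner of the acetyltransferase that modifies transfer RNA. Its selected probe read 2.71, 1.61, 1.63 and 1.64 on R6/2 1 to R6/2 4, and 2.61, 2.56, -6.92 and 1.51 on WT 1 to WT 4. The signal was off on WT 3 alone, and the other 7 arrays were at least 91.2-fold brighter. Those 7 arrays also formed a pair of levels, with R6/2 1, WT 1 and WT 2 above R6/2 2, R6/2 3, R6/2 4 and WT 4 by 0.91. The other Thumpd1 probe, whose start lies 175 bases away, read between 2.78 and 2.98 on R6/2 arrays and between 2.56 and 2.89 on WT arrays. WT 3 was its lowest array too, as on 26.3% of all tested probes, but by 0.23 only. The near-complete loss was thus seen in one stretch of the transcript and not in the other.

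The same contrast between probes was seen for Spock3 and Acyp2. Spock3 encodes a secreted proteoglycan of the testican family. Its selected probe had -1.04, -0.43, -1.58 and -1.56 on R6/2 1 to R6/2 4, and -0.52, 0.42, -7.32 and -0.67 on WT 1 to WT 4. The other probe, 284 bases away, had 0.61, 0.00, 0.33 and 0.29 on the R6/2 arrays and 1.10, 0.69, 0.73 and 0.89 on the WT arrays, with no loss on WT 3. Acyp2, an acylphosphatase gene, was off on R6/2 2: it had 1.08, -5.70, -0.08 and 0.04 on R6/2 1 to R6/2 4, and 0.12, 0.85, 0.49 and 0.14 on WT 1 to WT 4. Its other probe, 143326 bases away, read -0.67 on R6/2 2, the highest of all 8 arrays.

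Over all selected genes, 39 had another tested probe, and these came to 86 probes in all. The arrays low on the selected probe were also the lowest on 30 of the 86 (34.9%, exact 95% binomial interval 24.9% to 45.9%), beside 9.57% of all tested probes for the same sets of arrays. Probes of one gene share the same RNA, so the interval covers counting only. Of the 39 genes, 21 had no other probe with the same lowest arrays. In lincRNA intervals the count was 22 of 54 probes, and outside them it was 8 of 32. A matched share of all tested probes was not taken for either group. Among the 8, those of Crnde, H2bc18, Pdxdc1 and Thumpd1 had WT 3 lowest, as had 26.3% of all tested probes.

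Among the genes whose second probe kept the pattern was Smco3, a gene for a single-pass membrane protein. Its selected probe had -3.86, -0.60, -4.37 and -4.66 on R6/2 1 to R6/2 4, and -0.36, -0.81, -0.22 and -3.98 on WT 1 to WT 4. Its other probe had -2.92, -1.83, -3.06 and -2.83 on the R6/2 arrays and -1.70, -2.31, -1.87 and -2.84 on the WT arrays, so the same 4 arrays were low with a smaller step. Pdxdc1, which encodes a decarboxylase-like protein, was lowest on WT 3 in the selected probe (-3.88) and in one other probe (-1.36), but not in the remaining one (-3.83, the highest of the 8 arrays).

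Gfap, the intermediate filament of astrocytes, was the one selected gene on the astrocyte marker list. Its selected probe had 1.33, 1.47, 1.40 and 1.02 on R6/2 1 to R6/2 4, and -1.56, -1.59, 0.57 and -1.57 on WT 1 to WT 4. WT 3 thus sat nearer to the R6/2 arrays than to the other WT arrays. A dimmer Gfap probe had -3.07, -2.76, -2.55 and -2.71 on the R6/2 arrays and -4.58, -3.87, -3.58 and -3.90 on the WT arrays, while the brightest alternative probe stayed between 1.24 and 1.61 on R6/2 arrays and between 0.89 and 1.13 on WT arrays. In each of these Gfap probes, every R6/2 array was above every WT array. The other 5 probes of the astrocyte list, for 3 genes, had a mean centred level of 0.10, -0.03, 0.03 and -0.19 on R6/2 1 to R6/2 4, and 0.11, -0.06, -0.22 and 0.26 on WT 1 to WT 4, so their ranges overlapped between the genotypes. In such tissue samples fewer cells of a type and less RNA per cell cannot be told apart.

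**Figure D2:**
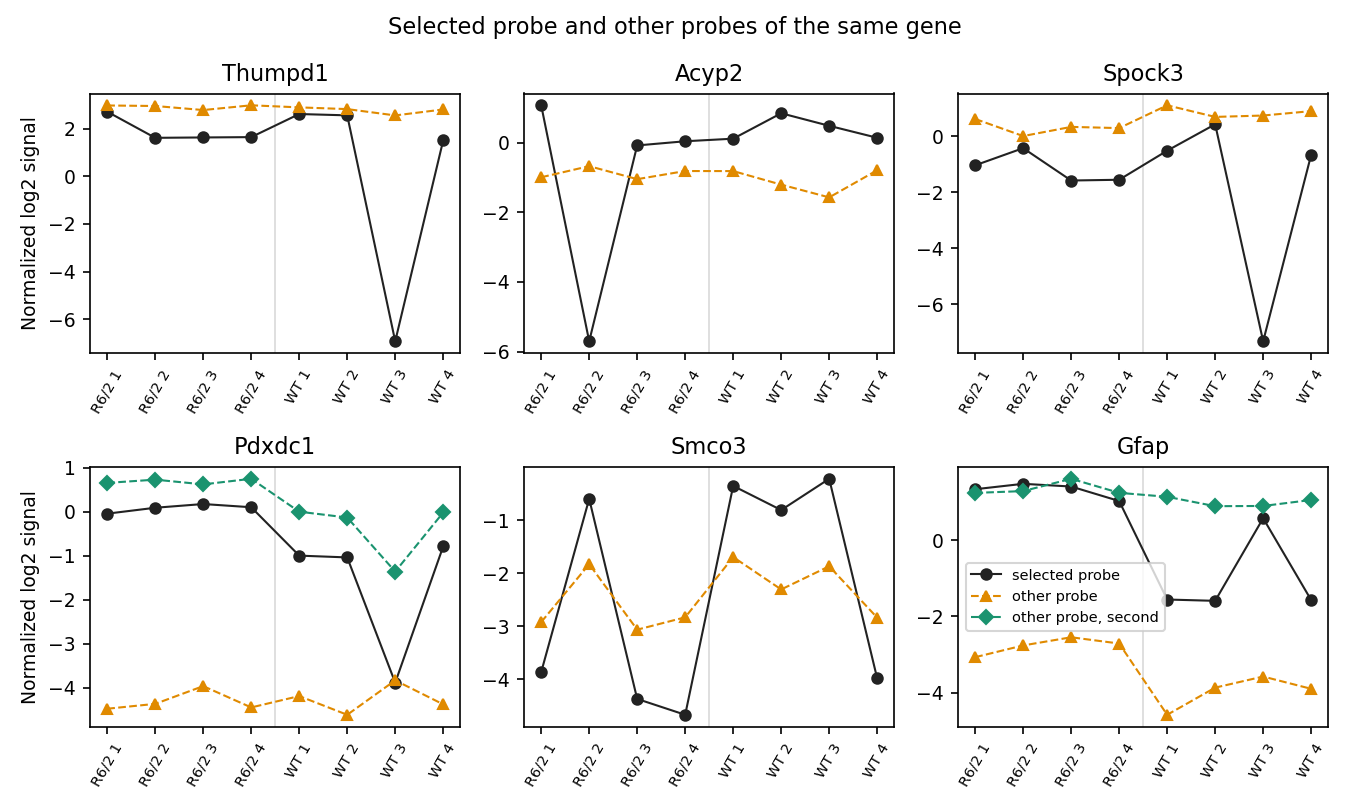
Normalized log2 signal (y axis) on R6/2 1 to R6/2 4 and WT 1 to WT 4 (x axis) for the selected probe (black circles) and other tested probes (coloured, dashed) of 6 genes. The drops of Thumpd1 and Spock3 on WT 3 and of Acyp2 on R6/2 2 stand in the selected probe alone, whereas both Smco3 probes have the same 4 low arrays.

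Genes near each other tended to be low on the same arrays. Of 18 pairs of selected genes whose probes lay 5 kb to 1 Mb apart, 12 (66.7%) had identical low arrays, and so had 12 of 19 pairs at 1 to 5 Mb (63.2%) and 14 of 56 at 5 to 20 Mb. Beyond 20 Mb on one chromosome it was 5 of 173 pairs (2.89%), and between chromosomes 166 of 4484 (3.70%). A gene enters several pairs and the selection used the values themselves, so these shares are a description. Most of the identical pairs at 1 to 5 Mb come from 5 chromosome 1 genes low on R6/2 1. Within 1 Mb, several come from the vomeronasal receptor genes of chromosome 7 and from the chromosome 5 loci given below. In addition 1 pair within 1 Mb and 1 pair at 1 to 5 Mb had exactly opposite low arrays.

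**Figure D3:**
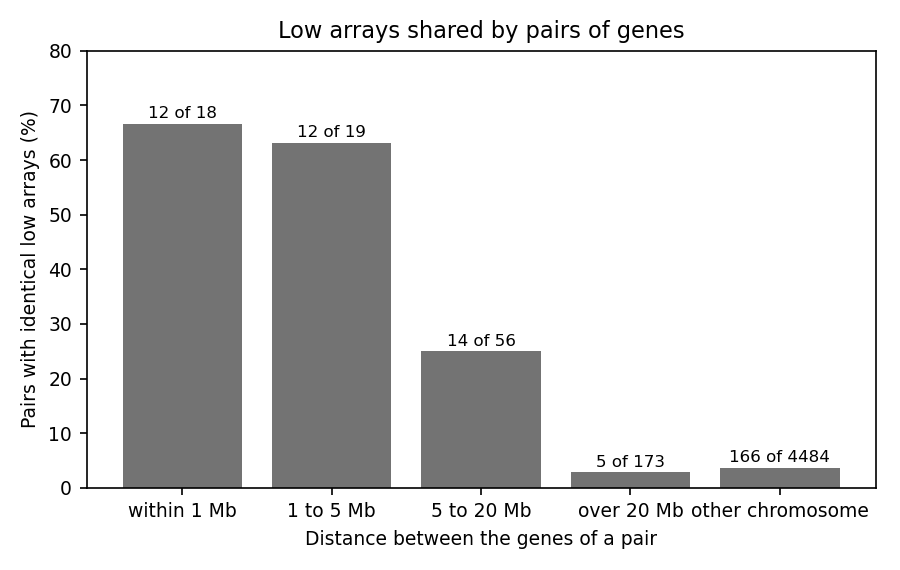
Share of pairs of selected genes with identical low arrays (y axis, percent, with counts above the bars) by the distance between their probes (x axis). The bars for pairs within 1 Mb and at 1 to 5 Mb stand at 66.7% and 63.2%, and those beyond 20 Mb or between chromosomes at 2.89% and 3.70%.

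Clusters of 2 or 3 genes with identical low arrays and probes within 1 Mb of each other numbered 11, with 24 genes. Of these, 2 clusters consist of overlapping probes (the histone gene H2bc18 with a lincRNA interval on chromosome 3, low on WT 3, and 1810058I24Rik with a lincRNA interval on chromosome 6, low on R6/2 1, R6/2 2 and WT 2). On chromosome 9, D430036J16Rik and a lincRNA interval with probes 217 bases away are likewise 1 locus, low on R6/2 1, R6/2 3, R6/2 4 and WT 1. The other 8 clusters hold probes placed at separate loci, though those of the vomeronasal receptor cluster may not tell near copies apart.

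**Figure D4:**
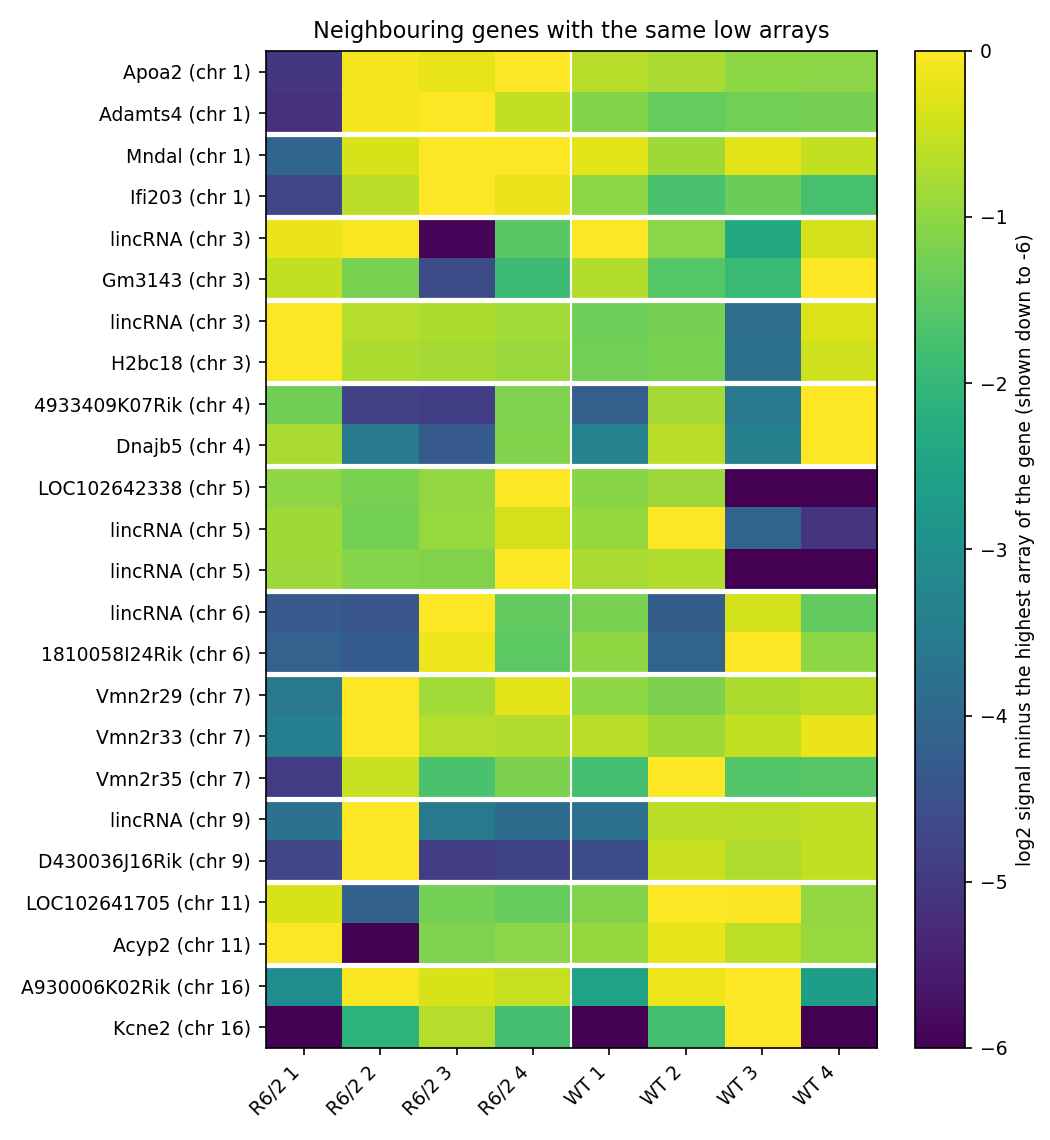
Genes of the 11 clusters (rows, with chromosome; white lines part the clusters) on the 8 arrays (columns), coloured by log2 signal minus the highest array of that gene, with values under -6 shown at -6. Within each block the dark cells fall in the same columns, such as R6/2 1 for Apoa2 and Adamts4 and WT 3 with WT 4 for the chromosome 5 genes.

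On distal chromosome 1, 5 genes within 3.84 Mb were low on R6/2 1 alone. Apoa2, an apolipoprotein of high-density lipoprotein, had -7.46, -2.51, -2.58 and -2.40 on R6/2 1 to R6/2 4, and -3.04, -3.16, -3.41 and -3.44 on WT 1 to WT 4. Adamts4, a protease that cleaves proteoglycans of the matrix, had -0.48, 4.56, 4.65 and 4.09 on the R6/2 arrays and 3.52, 3.23, 3.37 and 3.42 on the WT arrays. R6/2 1 was therefore lowest in both selected probes, off in that of Apoa2 but still well above background in that of Adamts4. Other probes of these genes had no such drop: a brighter Apoa2 probe read 2.32 on R6/2 1 and between 2.17 and 2.49 on all 8 arrays, and another Adamts4 probe was highest on R6/2 1, at 2.66. Some 2.6 Mb farther along lie the interferon-inducible genes Mndal and Ifi203 of the HIN-200 family, whose selected probes were off on R6/2 1 at -7.29 and -7.0. Ifi203 had -2.86, -2.25 and -2.43 on R6/2 2 to R6/2 4 and -3.28, -3.98, -3.61 and -4.0 on WT 1 to WT 4. The other Ifi203 probe was not lowest on R6/2 1, with -4.72 there and -6.14 on R6/2 2.

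In the selected probes of 4 of these 5 chromosome 1 genes (Apoa2, Adamts4, Ifi203 and 6330418B08Rik) the arrays kept the same order. R6/2 1 was lowest, the 4 WT arrays were in the middle and the other 3 R6/2 arrays were at the top. This order was noticed after the values were seen. Among the 120 tested probes in this region that were not selected, from 172 to 178 Mb, 6 (5.00%) had the same order, beside 0.376% of all tested probes. The clearest was B4galt3, a galactosyltransferase gene next to Adamts4, with 2.12, 4.33, 4.27 and 4.25 on the R6/2 arrays and 3.40, 3.58, 3.33 and 3.42 on the WT arrays. The haem synthesis gene Ppox followed, with -0.04, 0.92, 1.01 and 0.79 on the R6/2 arrays and 0.28, 0.25, 0.30 and 0.44 on the WT arrays. The order was counted without a minimum step, here and for the regions below. In Pfdn2 and Igsf8, also among the 6, the top arrays were above the middle ones by 0.0095 and 0.013 only. In Dcaf8 R6/2 1 was below the WT arrays by 0.063 only. Ifi202b, a strain-variable gene of the same interferon-inducible family as Ifi203, did not pass the background filter. It was highest on WT 3 and on R6/2 1, the array that was lowest in the selected probes above. Ifi202b had -3.44, -7.52, -7.60 and -7.31 on the R6/2 arrays and -6.10, -6.25, -3.27 and -6.68 on the WT arrays.

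Chromosome 7 had a second stretch with a shared order of arrays, which holds Trim12a and Thumpd1, 15.4 Mb apart. Trim12a belongs to the tripartite motif family, whose members include antiviral restriction factors. Its brighter probe had -0.23, -1.44, -1.25 and -1.71 on R6/2 1 to R6/2 4, and -0.56, -0.70, -6.58 and -1.84 on WT 1 to WT 4, at least 8.95-fold brighter on the other arrays than on WT 3. As with Thumpd1, WT 3 was off, R6/2 1, WT 1 and WT 2 were at the top, and the other 4 arrays stood between. The second Trim12a probe kept that order, but its top arrays stood above the middle ones by 0.087 only. Of 251 other tested probes from 110 to 128 Mb, 5 (1.99%) had the order, beside 0.675% of all tested probes.

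Those 5 probes include Trim34a, a neighbouring gene of the same family, which had -1.64, -2.74, -2.54 and -2.78 on the R6/2 arrays and -2.32, -2.24, -4.69 and -2.99 on the WT arrays. Tmc7, of the transmembrane channel-like family, had 1.30, 0.88, 0.56 and 0.34 on the R6/2 arrays and 1.49, 1.27, -1.57 and 0.55 on the WT arrays. Both were lowest on WT 3 by 1.70 and 1.91. In Spon1 and 1700003G18Rik, also among the 5, the top arrays were above the middle ones by 0.076 and 0.058 only. Trim12c, Trim30a and Trim30d, other tripartite motif genes of the list, had no gap over 0.62.

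On chromosome 2, C130078N14 and Ano3 lie 6.04 Mb apart and were low on R6/2 1, R6/2 3, WT 2 and WT 3. C130078N14 had -7.20, -0.75, -6.77 and -0.55 on R6/2 1 to R6/2 4, and 0.25, -7.21, -6.50 and 0.35 on WT 1 to WT 4. Ano3, of the anoctamin family of membrane proteins, had -5.12, -2.42, -4.95 and -2.32 on the R6/2 arrays and -1.09, -4.87, -5.58 and -1.17 on the WT arrays. A brighter Ano3 probe did not split this way, with -1.07, -1.22, -1.29 and -1.31 on the R6/2 arrays and -0.57, -0.38, -0.88 and -0.60 on the WT arrays. The selected probes of both genes had the same 3 groups of arrays: 4 low, R6/2 2 and R6/2 4 in the middle, and WT 1 and WT 4 at the top. Between them, an unnamed probe at chr2:104858036-104858095 that was not selected had -6.13, -3.95, -5.53 and -3.86 on the R6/2 arrays and -3.12, -5.60, -6.82 and -2.78 on the WT arrays, again in that order. Over the region, 3 of 82 other tested probes of the region (3.66%) had it, beside 0.327% of all tested probes. In Fbxo3, among these 3, the middle arrays were above the low ones by 0.0054 only. The third selected gene there, the kidney and gonad transcription factor gene Wt1, lies 0.502 Mb from C130078N14 and was low on WT 1 and WT 4, the top arrays of C130078N14, at -7.09 and -7.49. Wt1 was well above background on the 4 R6/2 arrays and on 0 of the 4 WT arrays.

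On chromosome 11, Acyp2 lies in a run of 3 selected genes within 2.45 Mb that were low on R6/2 2. LOC102641705 had 0.10, -3.71, -0.79 and -0.94 on R6/2 1 to R6/2 4, and -0.69, 0.45, 0.41 and -0.52 on WT 1 to WT 4. C530030P08Rik had -2.79, -6.0, -3.54 and -3.72 on the R6/2 arrays and -3.87, -2.92, -2.75 and -3.89 on the WT arrays. In these genes, as in Acyp2, R6/2 1, WT 2 and WT 3 were the 3 highest arrays. Among 75 other tested probes of the region, 2 (2.67%) kept this order, beside 0.208% of all tested probes: a lincRNA probe 3.69 kb from LOC102641705, and Nsg2, which encodes a neuronal vesicle protein.

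Nsg2 had -2.18, -3.93, -2.82 and -3.10 on the R6/2 arrays and -2.81, -2.29, -2.09 and -2.65 on the WT arrays. Over all 113 probes, 25 had a pair of levels among the high arrays. They were counted where the second gap was at least 0.5 and wider than the spread on either side of it. This definition was set after the values were seen. The selected probes of Apoa2, Ifi203, Trim12a and Acyp2 did not meet it, so for them only the order of the arrays is described.

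**Figure D5:**
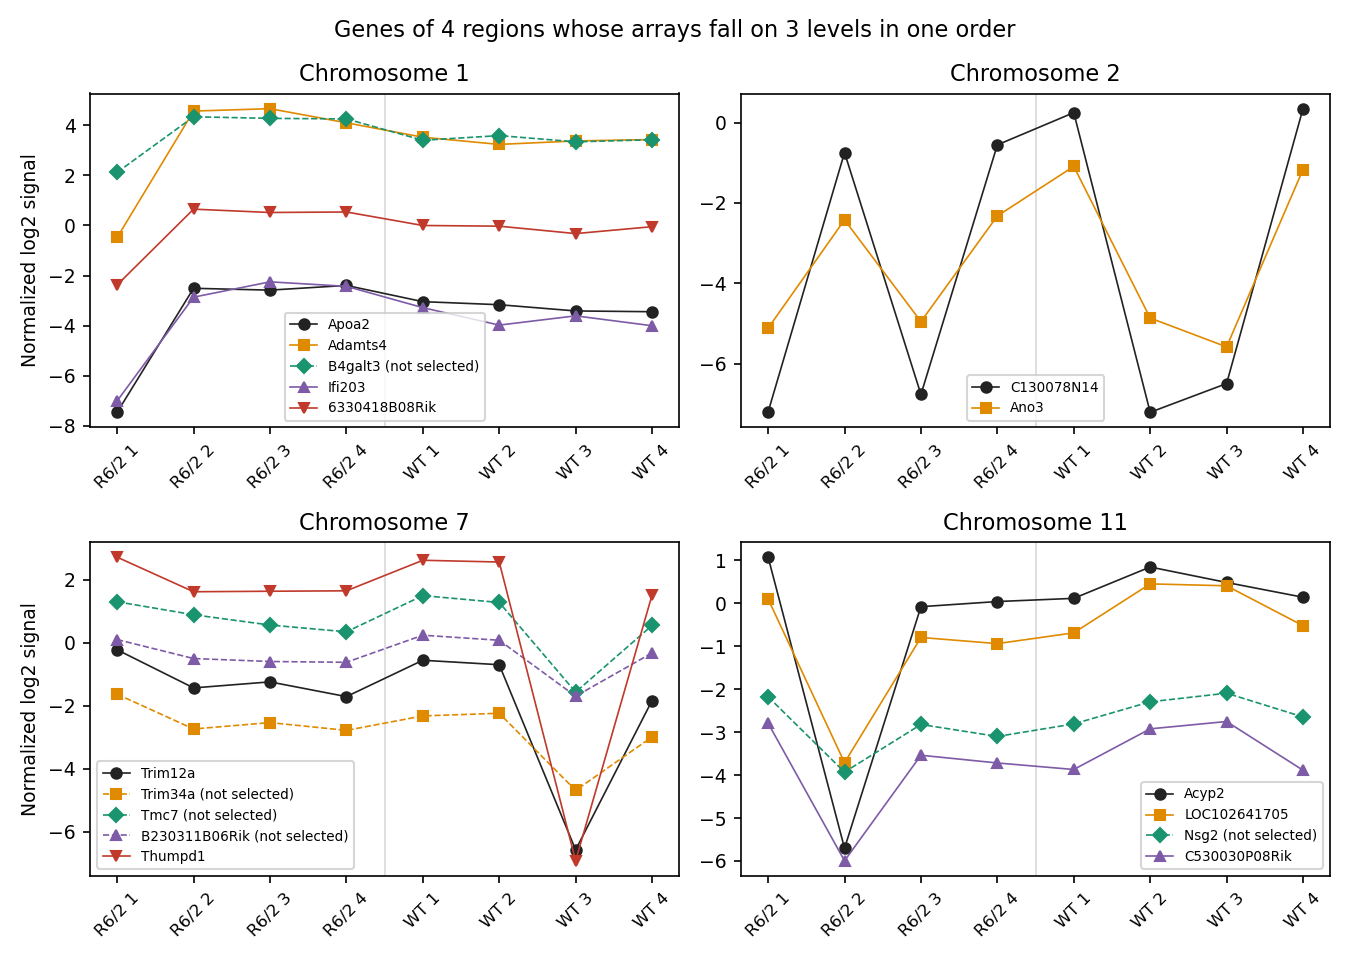
Normalized log2 signal (y axis) on R6/2 1 to R6/2 4 and WT 1 to WT 4 (x axis) for genes of 4 regions, with selected genes as solid lines and genes that were not selected as dashed lines. Only genes with a probe that kept the order of arrays of their region were drawn, so Mndal and Wt1, which did not, are absent. By that choice the genes of a panel rise and fall on the same arrays: R6/2 1 is lowest on chromosome 1, WT 3 on chromosome 7 and R6/2 2 on chromosome 11, and 4 arrays are low on chromosome 2.

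The 3 loci of the chromosome 5 cluster, within 62.4 kb, were low on WT 3 and WT 4 and present on all R6/2 arrays. LOC102642338 had -1.68, -1.88, -1.63 and -0.67 on R6/2 1 to R6/2 4, and -1.73, -1.55, -7.02 and -7.43 on WT 1 to WT 4. Of the 2 lincRNA intervals beside it, 4 probes were selected, and the one with the largest gap had -2.22, -2.42, -2.47 and -1.33 on the R6/2 arrays and -2.09, -2.01, -7.33 and -7.75 on the WT arrays. The 2 WT arrays were off, and the other 6 arrays lay within 1.14 of each other, with R6/2 4 highest as in LOC102642338. A brighter probe between the 2 selected probes of that interval had a smaller step of 0.32, with between -0.20 and 0.08 on the R6/2 arrays, -0.32 and -0.06 on WT 1 and WT 2, and -0.73 and -0.64 on WT 3 and WT 4. An unselected probe 127 kb before LOC102642338 had -5.78 and -5.20 on WT 3 and WT 4 and between -3.27 and -1.84 on the other arrays.

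The selected probes of the lincRNA intervals of this cluster are shown whole, since their annotation is no more than an interval and the sequence is what was measured.
chr5:105036667-105036726, plus strand: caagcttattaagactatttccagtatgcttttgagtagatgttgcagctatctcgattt
chr5:105037009-105037068, plus strand: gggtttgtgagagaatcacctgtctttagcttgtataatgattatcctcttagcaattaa
chr5:105073746-105073805, plus strand: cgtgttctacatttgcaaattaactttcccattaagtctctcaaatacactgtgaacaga
chr5:105073876-105073935, plus strand: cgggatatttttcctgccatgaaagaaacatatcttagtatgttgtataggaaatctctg

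On distal chromosome 4, a lincRNA interval had 3 selected probes that were off on R6/2 2 and R6/2 4. The one with the largest gap, chr4:146891123-146891182, had -3.33, -7.51, -3.51 and -7.49 on R6/2 1 to R6/2 4, and -2.72, -3.49, -3.56 and -3.48 on WT 1 to WT 4. Zfp982 and Zfp933, zinc finger genes within 0.31 Mb that were not selected, were lowest on the same 2 arrays. Zfp933, just outside the threshold, had 0.28, -2.04, 0.11 and -2.0 on the R6/2 arrays and 0.03, 0.16, -0.01 and 0.07 on the WT arrays. Its low arrays were well separated from the other 6, which lay within 0.29 of each other.

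Proximal chromosome 4 held genes low on 2 arrays of each genotype, R6/2 2, R6/2 3, WT 1 and WT 3. Mob3b, a kinase activator gene, lies 8.07 Mb before Dnajb5, which encodes a J-domain cochaperone, and 4933409K07Rik lies between them. Dnajb5 had -2.57, -5.30, -6.07 and -2.92 on R6/2 1 to R6/2 4, and -5.15, -2.42, -5.18 and -1.79 on WT 1 to WT 4. 4933409K07Rik had 0.83, -2.70, -2.74 and 0.97 on the R6/2 arrays and -2.05, 1.34, -1.47 and 2.13 on the WT arrays. All 8 values of 4933409K07Rik were well above background, so its low arrays held less signal rather than none. Gm3893 and Gm29804, on sequence not placed in mm9, had the same 4 low arrays, and the RefSeq table of build GRCm38.p6 puts both on chromosome 4. Brighter probes did not split this way in Dnajb5, which had between 3.49 and 3.85 on R6/2 arrays and between 3.73 and 4.11 on WT arrays, nor did another Mob3b probe, at -3.27 to -2.80 on R6/2 arrays and -3.56 to -3.0 on WT arrays. A second Gm3893 probe kept the pattern, with its low arrays apart from the others by 1.06.

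Chromosome 14 carried the opposite patterns. Samd4, which encodes an RNA-binding repressor of translation, had -0.47, -0.45, -4.69 and -4.96 on R6/2 1 to R6/2 4, and -0.40, -0.50, -5.85 and -4.88 on WT 1 to WT 4. Pnp2, a purine nucleoside phosphorylase gene 3.86 Mb away, had -0.54, -1.04, -6.45 and -7.21 on the R6/2 arrays and -0.51, -0.48, -4.42 and -6.33 on the WT arrays. Both were thus low on arrays 3 and 4 of each genotype. Rnase4, a secreted ribonuclease gene 0.141 Mb from Pnp2, was low on exactly the other arrays, with -1.04, -0.88, 1.45 and 1.29 on the R6/2 arrays and -1.0, -1.43, 1.65 and 1.41 on the WT arrays. Near it, 2310007J06Rik, which was not selected, had -1.20, -1.19, 0.32 and 0.10 on the R6/2 arrays and -1.42, -1.47, 0.32 and 0.04 on the WT arrays.

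Kcne2, a regulatory subunit of potassium channels, was the one selected gene on the choroid plexus list and had the second largest gap. Its probe had -7.47, -1.34, 0.11 and -0.98 on R6/2 1 to R6/2 4, and -7.34, -1.02, 0.78 and -7.74 on WT 1 to WT 4. It was off on R6/2 1, WT 1 and WT 4, and the other 5 arrays were at least 12.8-fold brighter. The other 14 probes of that list, for 9 genes, behaved differently: their mean log2 level ran between -1.08 and 1.06 on R6/2 arrays and between -0.90 and 1.20 on WT arrays, and R6/2 1 and WT 1 were its highest arrays of their genotypes. In all 14 probes R6/2 1 and WT 1 were above R6/2 2, R6/2 4, WT 2 and WT 4. Ttr, the transthyretin gene made at high level by the choroid plexus, had 7.53, 5.48, 7.04 and 6.85 on the R6/2 arrays and 7.86, 5.76, 7.94 and 6.31 on the WT arrays.

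Among the 5 arrays where Kcne2 was present, its order (WT 3, R6/2 3, R6/2 4, WT 2, R6/2 2) was that of the other choroid plexus probes, whose means there were 0.91, 0.17, 0.04, -0.90 and -1.08. Kcne2 was thus off on 2 of the 3 arrays with the highest choroid plexus level. On the same chromosome, A930006K02Rik was low on the same 3 arrays, in a stretch of 829 kb with Kcne2, and had -4.94, -1.91, -2.21 and -2.38 on R6/2 1 to R6/2 4, and -4.40, -2.0, -1.85 and -4.48 on WT 1 to WT 4.

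A cluster of vomeronasal receptor genes on proximal chromosome 7 (Vmn2r29, Vmn2r33 and Vmn2r35, receptors best known for pheromone sensing) was low on R6/2 1. Vmn2r29 had -5.84, -2.25, -3.07 and -2.50 on R6/2 1 to R6/2 4, and -3.27, -3.44, -3.00 and -2.88 on WT 1 to WT 4. Vmn2r46, farther along and not selected, was lowest on R6/2 1 as well, at -6.54, by 1.93. These genes belong to a large family of near copies, so their probes may not tell the members apart.

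On chromosome 3, the cluster of a lincRNA interval with Gm3143 was low on R6/2 3. The lincRNA probe had -0.75, -0.62, -6.48 and -2.11 on R6/2 1 to R6/2 4, and -0.56, -1.61, -2.92 and -0.95 on WT 1 to WT 4, while Gm3143 had -7.50 on R6/2 3 and between -4.85 and -2.90 elsewhere. On chromosome 9, Bfsp2, a lens filament gene, and Cpne4, a copine gene 1.45 Mb away, were low on R6/2 3 and R6/2 4. Bfsp2 had 0.62, 1.60, -2.33 and -2.74 on the R6/2 arrays and 0.65, 0.41, 0.35 and 0.48 on the WT arrays. Bfsp2 was still detected on its low arrays, whereas the selected Cpne4 probe was off on them, at -7.54 and -7.44. The other 3 tested Cpne4 probes were well above background on all 8 arrays and did not split this way, the brightest with 0.43 and 1.18 on R6/2 3 and R6/2 4 and 1.05 on R6/2 1.

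Neighbours outside the selection were counted too, but without the lower limit of 5 kb used for pairs of selected genes. Within 1 Mb of the selected genes lay 4060 pairs of a selected gene and a tested probe of another gene, and in 594 of them (14.6%) the neighbour had the same lowest arrays, beside 9.63% of all tested probes for the same sets of arrays. In 36 pairs (0.887%), for 27 probes, those arrays were also apart from the rest by at least 1, beside 0.077% of all tested probes. Some of these neighbours lay under 5 kb from the selected probe and may read the same transcript. Examples are lincRNA probes beside H2bc18, and an unnamed probe 0.248 kb from the chromosome 3 lincRNA probe near Gm3143. Others were unselected probes of selected lincRNA intervals, or possible near copies such as Vmn2r46. The share without such probes was not tested. The share with the same lowest arrays was 18.2% within 0.2 Mb and 11.8% within 5 Mb.

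The list of genes known to differ between inbred strains, drawn up with earlier results of these data known, held 116 genes on the array, of which 72 were tested with 99 probes. Of those probes 4 were selected: Thumpd1, both probes of Trim12a, and Xlr5c, an X-linked gene of the Xlr family, which was low on R6/2 3 with -7.25. Xlr5c had -4.73, -4.82 and -4.54 on the other R6/2 arrays and -5.24, -4.18, -3.78 and -5.06 on the WT arrays. It was also not well above background on WT 1 and WT 4, and its bound was 1.05-fold only. Another 29 of the 99 probes had a largest gap of at least 1 without meeting the rule. In 11 of these, for 7 genes, WT 3 alone stood high. The matching shares of all tested probes were not counted, so nothing is read from these 2 counts.

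Wdfy1, an endosomal adaptor gene on the same list, had a probe with 1.11, 1.08, 2.30 and 2.25 on R6/2 1 to R6/2 4, and 2.36, 2.26, 2.65 and 1.14 on WT 1 to WT 4. R6/2 1, R6/2 2 and WT 4 were lower than the rest by 1.11, while its other 3 tested probes did not split this way. The selected probe of Csprs was off on the same 3 arrays, with -6.99, -7.09, -3.38 and -3.70 on the R6/2 arrays and -3.94, -3.84, -3.06 and -7.25 on the WT arrays. Another Csprs probe did not split, with -3.05, -2.89 and -3.08 on those 3 arrays and between -2.98 and -2.57 on the other arrays. The selected probe is on unplaced sequence of mm9, but the RefSeq table puts Csprs on chromosome 1, where Wdfy1 lies. A probe that shares 46 bases with it, at chr1:85151779-85151838, had -6.94, -5.99, -3.60 and -3.65 on the R6/2 arrays and -4.57, -4.60, -2.59 and -7.38 on the WT arrays, so the same 3 arrays were lowest there too.

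Other genes of large gap had no selected neighbour. AI594671 on chromosome 11 had -7.03, -1.20, -1.01 and -1.25 on R6/2 1 to R6/2 4, and -6.87, -0.94, -0.78 and -0.79 on WT 1 to WT 4, off on the arrays numbered 1. Zfp874a, a zinc finger gene on chromosome 13, had -1.58, -1.61, -7.14 and -6.48 on the R6/2 arrays and -1.81, -1.74, -7.05 and -0.82 on the WT arrays. AA388235 on chromosome 17 was off on R6/2 3 and WT 3, at -7.36 and -7.0, so that its low arrays, like those of AI594671, share a replicate number and with it a slide column. Slc12a8, a solute carrier gene on chromosome 16 named here after its values were seen, was low on R6/2 4 and WT 4, with -0.27, -0.01, -0.07 and -3.28 on the R6/2 arrays and 0.28, 0.17, 0.27 and -3.68 on the WT arrays. A dimmer Slc12a8 probe did not split this way, at -3.38 on R6/2 4 and -3.24 on WT 4.

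Some low sets followed neither the genotype nor the replicate number as a whole. Sft2d1, a vesicle transport gene on chromosome 17, had a selected probe that was off on R6/2 3, WT 1 and WT 3, with -3.71, -2.76, -7.38 and -3.86 on R6/2 1 to R6/2 4, and -7.06, -3.02, -7.03 and -3.65 on WT 1 to WT 4. A brighter Sft2d1 probe was well above background on all 8 arrays, with 0.65, 1.06 and 0.41 on those 3. Kif5b, the kinesin heavy chain of many cell types, was named after its values were seen: it was low but detected on R6/2 4 and WT 2, with -0.37, -0.30, -0.26 and -2.48 on the R6/2 arrays and -0.32, -2.73, 0.25 and -0.31 on the WT arrays. An unnamed probe on chromosome 12 was low on R6/2 1, R6/2 2 and WT 3, with -3.77, -4.09, 0.69 and 0.78 on the R6/2 arrays and 1.81, 0.64, -3.49 and 1.63 on the WT arrays. A probe described in the files as a part of an endogenous retrovirus was low on WT 3 at -3.34 and between 0.95 and 2.69 on the other arrays.

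The following genes were also named after their values were seen, because they were bright where present. Ttc8, which encodes a subunit of a complex of the primary cilium, had -1.89, -1.89, 0.83 and 0.60 on R6/2 1 to R6/2 4, and 0.94, 0.86, 0.96 and 1.76 on WT 1 to WT 4. Pla2g4e, a phospholipase gene, was low on WT 1 and WT 4, with -0.31, -0.82, -0.05 and -0.04 on the R6/2 arrays and -3.64, -0.22, -0.40 and -3.51 on the WT arrays. Both remained well above background on their low arrays. Syt10, a synaptotagmin gene, had -0.54, 0.78, -2.99 and 1.08 on the R6/2 arrays and 0.30, 0.96, -2.95 and 0.71 on the WT arrays, low on the arrays numbered 3.

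Ccr6, a chemokine receptor gene 0.0703 Mb from Sft2d1, was low on R6/2 2 alone, with -0.21, -3.48, 0.30 and -0.44 on R6/2 1 to R6/2 4, and 0.77, -0.87, 0.89 and 0.21 on WT 1 to WT 4. These neighbours thus had no low array in common. Gm5148 on chromosome 3, 3.01 Mb from Gm3143, likewise shared no low array with it: it had -7.09, -7.23, -2.01 and -2.89 on the R6/2 arrays and -6.94, -3.88, -2.89 and -7.35 on the WT arrays. Ang2, a ribonuclease gene of the angiogenin group 0.0903 Mb from Rnase4, was low on R6/2 3 alone, at -7.22, but was also not well above background on WT 1 and WT 3, at -4.78 and -4.89.

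Several lincRNA intervals had more than 1 selected probe. An interval on chromosome 15 had 3 selected probes, and the one with the largest gap had -5.24, -4.89, -1.62 and -1.04 on R6/2 1 to R6/2 4, and -1.88, -1.58, -1.88 and -4.39 on WT 1 to WT 4. Of 11 other tested probes of that interval 9 had other arrays lowest, and the brightest had between 5.31 and 5.50 on R6/2 arrays and between 5.31 and 5.4 on WT arrays. The low arrays of the selected probes, R6/2 1, R6/2 2 and WT 4, are also those of Csprs. An interval on chromosome 8 had 2 selected probes low on WT 2, with -2.59 against 0.46 to 0.67 on the R6/2 arrays and 0.59 to 1.32 on the other WT arrays in the brighter one. The lincRNA probe beside D430036J16Rik had -3.65, 0.09, -3.48 and -3.79 on the R6/2 arrays and -3.72, -0.53, -0.56 and -0.49 on the WT arrays, and D430036J16Rik itself had -7.10, -2.39, -7.29 and -7.19 on the R6/2 arrays and -6.94, -2.87, -3.11 and -2.93 on the WT arrays.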

How the data were processed

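Cy3-labelled RNA was measured on 8 Agilent mouse arrays of 60-base probes. Per the file headers, intensity values were made by Agilent Feature Extraction 10.7.3.1, and its processed signal is background-subtracted. The authors' deposited table holds normalized log2 values, p-values of an unpaired test and fold changes (ratios of R6/2 to WT), and how it was normalized is not given in the sources used here. Its log2 values were each array's processed signal minus a constant. The selection used these log2 values. Probe positions are on mm9, for which no gene annotation was used here, so exon and UTR placement is not given. Gene names were updated through RefSeq accessions.

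R6/2 and WT were compared with limma 3.58.1 (R 4.3.3, lmFit and eBayes) on log2 processed signal minus each array's 75th percentile, over probes well above background on 4 or more arrays, with Benjamini-Hochberg adjustment. These p-values measure the spread between arrays, which may be technical in part. Same-numbered arrays deviated together (correlations 0.133 to 0.356), so the replicate number was also fitted as a block. The scripts were tested on simulated data. The number of arrays limits the precision.

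The members and lists were chosen with earlier results of these data known. Named genes are those in clusters, on the strain variant and marker lists, and of largest gap; any other was named after its values were seen. Marker lists of 16 cell types or tissues were checked, and besides Gfap (astrocytes) and Kcne2 (choroid plexus) they held 0 selected genes.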

Additional observations from a re-analysis of the deposited data

Results flagged for a closer look

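The number of selected probes on which an array was low set R6/2 4 apart from the other R6/2 arrays: it was low on 23 probes, against 34 to 36 on R6/2 1, R6/2 2 and R6/2 3. The gap to the nearest array was 0.846 of the range of the 4 arrays. R6/2 4 also had the most probes well above background, 67.7% against 61.9% to 64.0% on the other R6/2 arrays. Whether the count is linked to that share was not tested. The counts rest on the values that chose the probes, and several probes read 1 locus, so this is a description and no test.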

How the results depend on the processing

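The 113 probes became 182 with a gap of at least 1.5, 32 with a gap of at least 3 and 11 with normexp correction, whether followed by quantile normalization or, as added after seeing the data, by 75th percentile scaling. Leaving out 1 array gave 104 to 121 probes, of which 94 to 109 were among the 113. The 529 genotype calls became 282 with the replicate block, 1203 with normexp, 111 with no filter on dim probes and 100 (without WT 4) to 506 (without WT 3) when 1 array was left out; 0 to 2 selected probes were called in any of these, and the cause of the changes was not tested. Neighbours with the same lowest arrays made up 18.2% within 0.2 Mb and 11.8% within 5 Mb, against 14.6% within 1 Mb. Of 35 alternatives in all, 19 stayed within these limits: a count within 1.5 times the main one, or a share within its interval. Signals near the array's floor bound a low value from above only, so the depth of an off call is not measured.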
